A study of Mus musculus with 5 samples.

Results

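The class II presentation genes are 10 mouse genes whose products form MHC class II molecules, load peptides on them or control them. They are H2-DMa, H2-DMb1, H2-DMb2, H2-Oa, H2-Ob, H2-Aa, H2-Ab1, H2-Eb1, Cd74 and Ciita. An interval of bound DNA was given to one of them when its centre lay within 50 kb of a protein-coding transcription start site (TSS) and no other protein-coding gene had a nearer one. The binding data came from chromatin immunoprecipitation and sequencing (ChIP-seq) of the transcription factors IRF4 and IRF8 in B cells of wild-type C57BL/6 mice. In 4 libraries, naive spleen B cells had been cultured with lipopolysaccharide (LPS, 10 μg/ml): IRF4 at 72 h, IRF4 at 48 h, IRF8 at 72 h and IRF8 at 48 h. The last library was IRF8 in germinal centre (GC) B cells, sorted 13 days after immunisation with NP-KLH, with no culture. The lists held 898, 1573, 1826, 1059 and 234 intervals for IRF4 at 72 h, IRF4 at 48 h, IRF8 in GC B cells, IRF8 at 72 h and IRF8 at 48 h. Of these 5590 intervals, 13 belonged to the class II genes; they fell at 6 places and at 4 of the 10 genes. All 10 genes were found in the annotation of 22232 protein-coding genes, so each could be assigned an interval.

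MHC class II molecules show peptides from swallowed antigen to helper T cells, which is how a B cell receives help. The invariant chain, encoded by Cd74, fills the groove of a new class II molecule until H2-DM exchanges the last piece of it for a peptide, and H2-DO holds H2-DM back. Ciita encodes the co-activator that class II genes need, which acts through the W, X and Y boxes of their promoters. IRF4 and IRF8 bind DNA weakly alone and bind composite sites with partners, among them the ETS-IRF composite element (EICE), shared with PU.1 or SPIB, and AICE1, shared with AP-1 proteins such as BATF. IRF8 also binds the interferon-stimulated response element (ISRE).

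The sites that carry the description below are shown first, each as 30 bases of mm9 read 5′ to 3′ on the strand of the element, with the element in capitals. The searched letters were GGAANNGAAA for the EICE and GAAANNGAAA for the core of the ISRE, on both strands, and the letters of these elements can overlap. The first site lies upstream of H2-DMb2 and was inside an interval of all 5 lists. The next pair was inside peaks of all 4 LPS lists and no GC interval, and the last one was inside intervals of IRF8 in GC B cells and at 72 h.
H2-DMb2, chr17:34280115-34280144, plus strand, EICE: acatgaatatGGAAGTGAAAtcctctccta
Between H2-DMb1 and Psmb9, chr17:34317654-34317683, minus strand, EICE: tcagaaagcaGGAACTGAAAgtggccagtg
Upstream of the pseudogene H2-Ea-ps, chr17:34484735-34484764, minus strand, EICE: acagagaaggGGAACTGAAAgtcattctct
Psmb8, chr17:34335286-34335315, minus strand, EICE: tctgcgacaaGGAAGTGAAAgcgaaagcca
Any pair of these 4 sites had 15 to 17 of 30 bases in common, position by position, 8 of them the fixed letters of the element. In the Psmb8 site the letters that follow the EICE complete an ISRE core that overlaps it.

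The class II genes with an interval numbered 1 to 3 of 10 in each list. IRF4 had 1 interval at 72 h of LPS, at H2-DMb2, where 2.92% of all protein-coding genes had one. IRF4 at 48 h had 1 at H2-DMb2 and 1 at H2-Ob, 2 of 10 genes against 4.75% of all genes. IRF8 in GC B cells had 5 intervals at 3 genes, H2-DMb2, H2-Oa and Cd74, against 5.89% of all genes. IRF8 at 72 h had 4 intervals at those 3 genes, against 3.32%, and IRF8 at 48 h had 1, at H2-DMb2, against 0.756%. Over the 5 lists together 4 of the 10 genes had an interval, against 11.6% of all genes. With 10 members 1 gene is 10%, so in a single list the smallest count above 0 already exceeds the share of all genes. Every group was a single library, and the genes were chosen with earlier results of these data known, so these counts were not tested.

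The locus is dense, which limits what nearest-gene assignment can give a member. The stretch of DNA nearer to a member's TSS than to any other coding TSS, cut at 50 kb, was 8.95 kb for H2-DMb2, 11.5 kb for H2-DMa and 18.9 to 33.3 kb for the other chromosome 17 members. It was 36.3 kb for Cd74 and 52.7 kb for Ciita, against a median of 46.7 kb over all genes. When any interval within 50 kb was counted, nearest or not, 5 of the 10 genes had one for IRF4 at 72 h (6.3% of all genes) and 7 for IRF4 at 48 h (9.51%). For IRF8 the counts were 6 in GC B cells (13.1%), 7 at 72 h (7.23%) and 5 at 48 h (1.63%). Over all lists every member but H2-Aa and Ciita had one, against 24.2% of all genes. These counts share intervals: the one at H2-DMb2 alone lay within 50 kb of H2-DMa, H2-DMb2 and H2-DMb1.

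**Figure D1:**
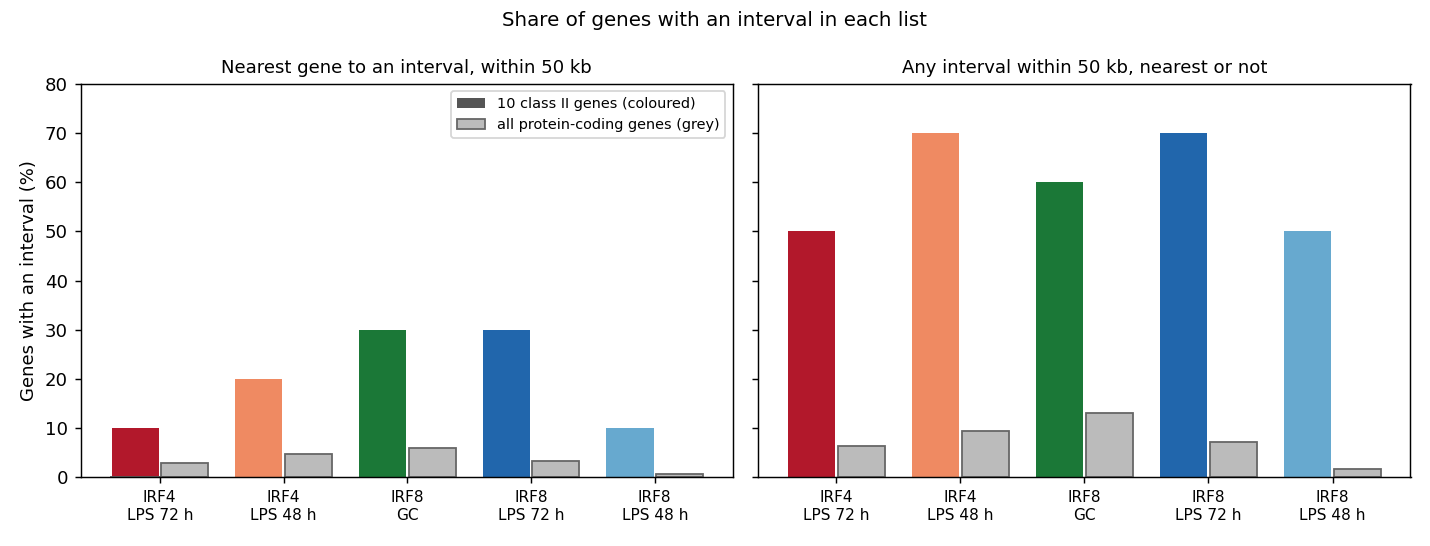
Percent of genes with an interval in each list, for the 10 class II genes (coloured bars) and all 22232 protein-coding genes (grey bars), by nearest gene (left) and by any interval within 50 kb (right). The coloured bars stand at 10 to 30% on the left and 50 to 70% on the right, above the grey bar of each list, and 1 gene of 10 makes 10%.

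H2-DM, the peptide exchanger, has an alpha chain from H2-DMa and beta chains from H2-DMb1 and H2-DMb2. H2-DMb2 was the class II gene bound in every list, at 1 place. The interval centres were intergenic in the annotation, between H2-DMa and H2-DMb2. Each interval reached past the annotated start of the H2-DMb2 gene, chr17:34280252. The IRF4 peak carried 42.5 normalised tags at 72 h (95% Poisson interval 24.3 to 69), at chr17:34279816-34280316, and 35.3 at 48 h (18.3 to 61.7). A normalised tag count is the authors' count of sequenced fragments in a peak per 10000000 tags of the library; these values rest on 16 and 12 tags. The IRF8 peak carried 39.1 normalised tags at 72 h (20.2 to 68.4), with 22.9 for the 48 h peak (11 to 42). The GC interval, which has no tag value, was chr17:34279494-34280410. The 48 h IRF8 value was the lowest of the 4, and all 4 intervals overlapped. The IRF4 peaks ranked 154 of 898 at 72 h and 801 of 1573 at 48 h. The IRF8 peaks ranked 217 of 1059 at 72 h and 195 of 234 at 48 h. The IRF8 48 h peak, on 10 tags, was thus near the lowest value kept in its list, 20.6.

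The LPS peak centres lay 2.12 to 2.19 kb upstream of the TSS of the protein-coding H2-DMb2 transcript, and 115 to 186 bp upstream of the start of a longer non-coding transcript of the same gene. The EICE was 123 bp upstream of that start and 8 to 63 bp from the centres of the LPS peaks. It lay 177 bp from the centre of the wider GC interval, which also held an ISRE core that no LPS peak reached. The surrounding 210 bases, chr17:34280025-34280234 on the plus strand, are shown because they are the only stretch at a class II gene found in all 5 lists, with the EICE in capitals.
H2-DMb2 upstream place: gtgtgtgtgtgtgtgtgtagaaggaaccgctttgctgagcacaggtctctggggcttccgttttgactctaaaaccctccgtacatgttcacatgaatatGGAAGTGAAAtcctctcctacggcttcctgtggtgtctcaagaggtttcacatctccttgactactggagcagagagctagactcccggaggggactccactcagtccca

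At this H2-DMb2 place the tags did not differ past the test in any of the 4 pairs of LPS libraries compared. The IRF4 ratio of 72 h over 48 h was 1.2 (95% interval 0.534 to 2.79; exact binomial test, two-sided, adjusted p = 0.939 over 536 shared places), against a median of 0.765 over those places, of which 2.61% passed. The IRF8 ratio of 72 h over 48 h was 1.71 (0.678 to 4.43; exact binomial test, adjusted p = 0.525 over 138 places), against a median of 1.5, with 12.3% past the test. IRF4 over IRF8 was 1.09 at 72 h (0.482 to 2.51; exact binomial test, adjusted p = 1; 0.388% of 258 places passed). At 48 h it was 1.55 (0.612 to 3.99; exact binomial test, adjusted p = 0.671; 18% of 122 places passed). With 10 to 16 tags in each peak, these intervals leave room for differences of more than 2-fold in either direction for IRF4 over IRF8 at 72 h, and of up to 4.43-fold for IRF8 in time. Over all shared places the median ratio of IRF4 over IRF8 was 0.974 at 72 h and 1.37 at 48 h. The test compares libraries, not conditions.

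No list gave an interval to H2-DMa or H2-DMb1. Their nearest interval in each list was the H2-DMb2 one, 7.83 to 8.01 kb from the H2-DMa TSS and 9.88 to 10.1 kb from that of H2-DMb1. Which of these genes, if any, the place acts on was not tested.

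**Figure D2:**
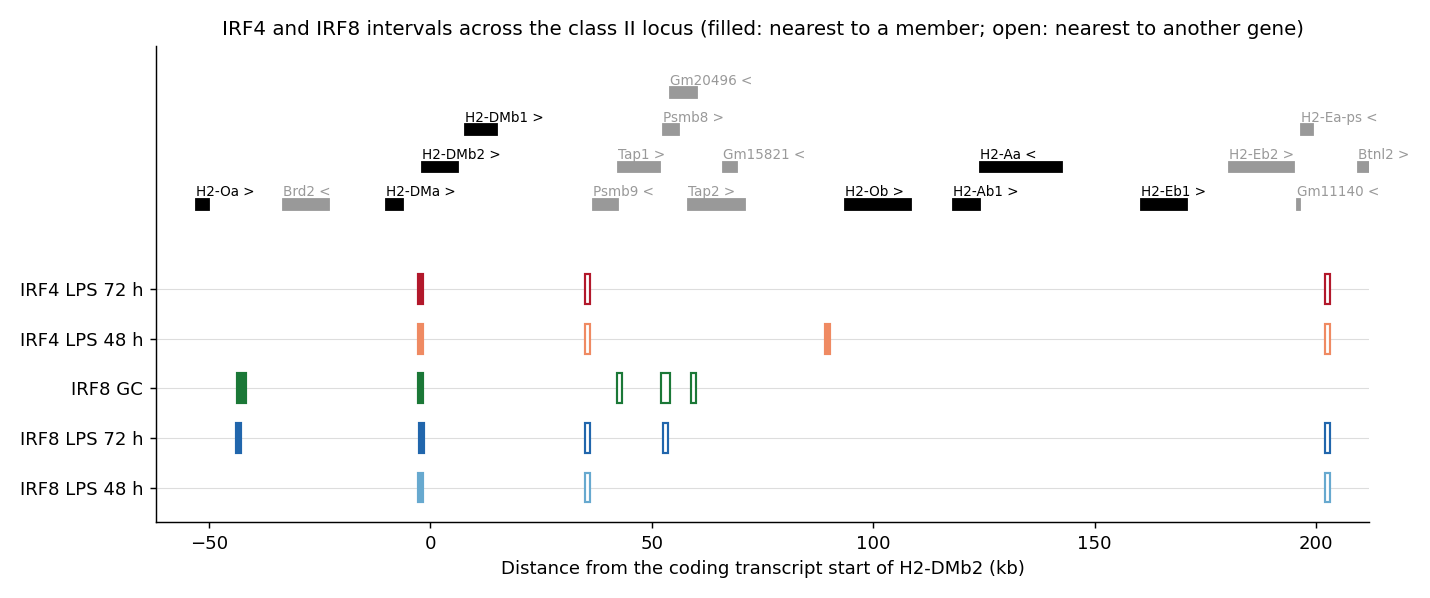
Intervals of the 5 lists along the class II locus, as distance in kb from the coding TSS of H2-DMb2; black bars are class II members, grey bars other coding genes and the pseudogene H2-Ea-ps, and arrowheads give the strand. Filled boxes are nearest to a member and open boxes to another gene, and narrow intervals are drawn wider than to scale; all 5 lists have a filled box just upstream of H2-DMb2, and none has one at H2-Ab1, H2-Aa or H2-Eb1.

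H2-DO, the inhibitor of H2-DM, is made of an H2-Oa and an H2-Ob chain, and the 2 genes were found in different lists. Downstream of H2-Oa, IRF8 had an interval in GC B cells, chr17:34238494-34240487, and a peak at 72 h inside it, chr17:34238641-34239141, with 32.6 normalised tags (15.6 to 60). Both are intergenic, 10.2 and 9.61 kb past the H2-Oa TSS and beyond the end of that gene. The 72 h peak ranked 400 of 1059 and held none of the 6 IRF, ETS or AP-1 elements searched. The GC interval held a pair of ISRE cores outside that peak, 1058 and 1175 bp from its centre, shown because they are the elements of this place:
H2-Oa, chr17:34239935-34239964, minus strand, ISRE: gctcataggtGAAAGTGAAAcattacaacg
H2-Oa, chr17:34240052-34240081, minus strand, ISRE: tgaagagaatGAAAACGAAAcaaaaagcaa
An ISRE core lay somewhere in 37.3% of all GC intervals, whose median width was 1144.5 bp, so its presence in a long interval is common. Upstream of H2-Ob, IRF4 at 48 h had a peak 3.86 kb before the TSS, chr17:34371741-34372241, with 29.4 normalised tags (14.1 to 54.1). It ranked 1180 of 1573, held none of the elements and was in no other list.

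The classical class II chains, H2-Aa and H2-Ab1 of I-A and H2-Eb1 of I-E, had no assigned interval in any list. The nearest interval to the H2-Eb1 TSS was 41.9 kb away in each LPS list, the same place each time, and 101 kb away in the GC list. For H2-Ab1 the nearest was the H2-Ob peak of IRF4 at 48 h, at 28.2 kb; in the other lists it was 58.6 to 82.5 kb away. For H2-Aa the distances were 52.7 to 83.1 kb. A list without an interval does not show that a factor was absent: the lowest peak kept had 18.6 normalised tags for IRF4 at 72 h, 23.6 for IRF4 at 48 h, 22.8 for IRF8 at 72 h and 20.6 for IRF8 at 48 h.

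Cd74, the invariant chain gene on chromosome 18, had 5 intervals at 3 places, all of IRF8; H2-DMb2 also had 5, at its 1 place. In GC B cells there were 3: one at chr18:60951145-60952749, one across the TSS at chr18:60962167-60963932, and one in an intron at chr18:60966760-60967965, 3.85 kb past the TSS. At 72 h of LPS, IRF8 had a peak inside each of the first 2 of these. The distal peak, 11.7 kb upstream at chr18:60951536-60952036, carried 35.9 normalised tags (17.9 to 64.2). The promoter peak, centred 82 bp upstream of the TSS at chr18:60963170-60963670, carried 29.4 (13.4 to 55.7), on 9 tags. They ranked 294 and 577 of 1059 in a list whose median was 32.6 normalised tags.

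Both Cd74 peaks held an EICE near their centre, 8 bp away in the distal peak and 16 bp away in the promoter peak, where it lay 98 bp upstream of the TSS. The same EICEs lay inside the GC intervals, 169 and 355 bp from their centres, and the intronic GC interval held none. No IRF4 list and not the IRF8 48 h list had an interval nearest to Cd74. Whether IRF4 tags differed from IRF8 tags at these places was not tested, since the lists give tags only in their own peaks. The sequence at Cd74 is not shown here.

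**Figure D3:**
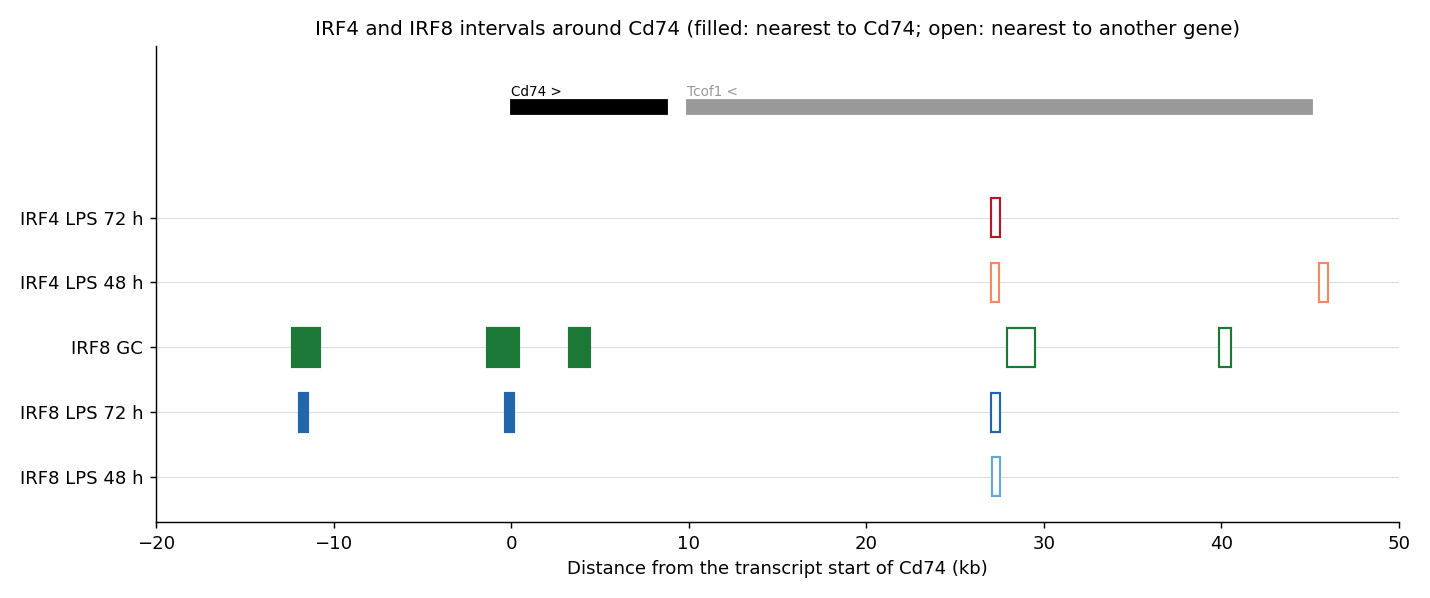
Intervals of the 5 lists around Cd74, to scale, as distance in kb from its TSS; filled boxes are nearest to Cd74, open boxes to Tcof1. Filled boxes appear in the rows of IRF8 in GC B cells (3 boxes) and at 72 h of LPS (2 boxes), and an open box 27.2 to 27.3 kb past the TSS appears in every LPS row.

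Ciita, the master co-activator, had no interval in any list. The nearest one to any of its 5 coding start sites was 579 kb away in both IRF4 lists. For IRF8 it was 252 kb away in GC B cells, 163 kb at 72 h and 654 kb at 48 h. All of these were nearest to other genes.

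The 4 IRF8 peaks at class II genes at 72 h were all also in the GC list, while 19.1% of all IRF8 peaks at 72 h overlapped a GC interval. At H2-Oa and at both Cd74 places the pair of IRF8 lists had an interval and no IRF4 list did; 10% of all IRF8 72 h peaks have that pattern. In the other direction, 11.1% of all GC intervals overlapped an IRF8 72 h peak. The GC cells were not cultured, were frozen and processed by a company, and their intervals came from another peak caller, so cell type and method cannot be told apart in this comparison.

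Of the 6 class II places, 3 held an EICE within 100 bp of a peak centre: H2-DMb2, and both Cd74 places bound at 72 h. None held an ISRE core, an AP-1 site (TGACTCA or TGAGTCA), AICE1, AICE2 or a PU.1-type site (GAGGAAGT) in that window. By list, the EICE was in the single IRF4 peak at 72 h, where 25.6% of all peaks held it, and in 1 of 2 IRF4 peaks at 48 h (14.6% of all). It was in 3 of 4 class II peaks of IRF8 at 72 h (22% of all) and in the single peak of IRF8 at 48 h (19.5% of all). Within 50 bp of the centre it was in 0 of 1 IRF4 peaks at 72 h (18.4% of all) and 0 of 2 at 48 h (10.5% of all). For IRF8 it was in 3 of 4 peaks at 72 h (18.3% of all) and 0 of 1 at 48 h (17.3% of all). None of the 5 GC intervals held it within 100 bp of the centre (7.34% of all), and 3 of 5 held it over their whole length (23% of all). These counts by list share copies of the element. The EICE at H2-DMb2 lay in an interval of all 5 lists, and both of those at Cd74 in the IRF8 72 h and GC intervals. AP-1 sites lay under 28.7% of all IRF4 48 h peaks and under neither of the pair at class II genes.

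The promoters of the members were searched apart from the peaks, in RefSeq windows of 300 bases around each start (GRCm38.p6). There were 8 promoters for 7 members; H2-Ab1, Cd74 and Ciita were not among them. The pair of RefSeq starts of H2-DMa lay at -12350 and -9664 bp from the coding TSS used above, and those of the other 6 genes within 119 bp of it. Of the 8 promoters 7 held a CCAAT box (ATTGG on either strand), the core of the Y box that NF-Y binds, against 37.4% of all 32851 promoters; the one without it was 1 of the pair of H2-DMa. None held an EICE (2.72% of all) or an ISRE core (3.44% of all). Matched to mm9, none of the 8 promoters overlapped an interval of any list. That includes the one at the coding start of H2-DMb2, at chr17:34281944-34282243, which lies downstream of the bound place.

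A further 9 places lay within 50 kb of a class II TSS but nearest to another gene, with 19 intervals. On chromosome 17, 4 of them were nearest to class I processing genes that sit among the class II genes: Tap1, Tap2, Psmb8 and Psmb9. IRF8 in GC B cells had an interval at Tap1, chr17:34324280-34325570, and at Tap2, chr17:34341319-34341888, the transporter that brings peptides to class I molecules. At Psmb8, an immunoproteasome subunit gene, it had chr17:34334351-34336311, and IRF8 at 72 h had a peak inside it with 52.2 normalised tags (29.8 to 84.8). Over their whole length, the GC intervals at Tap1 and Tap2 held an ISRE core (37.3% of all GC intervals) and no EICE (23% of all held one). The ISRE cores lay 278 and 153 bp from the interval centres, outside the window of 100 bp:
Tap1, chr17:34324633-34324662, minus strand, ISRE: agaggaagaaGAAACCGAAAgccgacctcg
Tap2, chr17:34341436-34341465, plus strand, ISRE: gcagtgaagtGAAAGCGAAAgccgcgggac
No IRF4 peak was nearest to Tap1, Tap2 or Psmb8, while the Psmb9 place was in both IRF4 lists. The GC interval at Tap1 also covered the outer start of Psmb9, so nearest-gene assignment does not separate Tap1 from Psmb9 there.

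The Psmb9 place and the remaining one on chromosome 17 were in all 4 LPS lists and not in the GC list, each with the EICE shown above. The one between H2-DMb1 and Psmb9, an immunoproteasome subunit gene, lay beyond the 3′ end of Psmb9. It was 2.99 to 3.04 kb past the nearest coding start of Psmb9, which is inside the annotated gene, and 27.6 to 27.7 kb past the H2-DMb1 TSS. The outer start of Psmb9, at chr17:34324709, is farther away and inside the GC interval assigned to Tap1. The place carried 39.8 normalised IRF4 tags at 72 h (22.3 to 65.7), with 53 for the 48 h peak (31.4 to 83.7). IRF8 carried the values it had at H2-DMb2, 39.1 at 72 h and 22.9 at 48 h, on equal tags. The IRF4 value at 48 h was the highest and the IRF8 value at 48 h the lowest. Their ratio, 2.32 (1.01 to 5.62), did not pass the exact binomial test after adjustment (adjusted p = 0.138 over 122 places). The median ratio over those places was 1.37. With tags scaled to those in shared places, the ratio at the Psmb9 place was 1.72 (0.753 to 4.17, exact binomial test, adjusted p = 0.656). The place near H2-Ea-ps, 41.9 kb past the H2-Eb1 TSS, is upstream of the I-E alpha chain gene, which is inactive in C57BL/6 mice. IRF4 there carried 39.8 normalised tags at 72 h (22.3 to 65.7), with 32.4 for the 48 h peak (16.2 to 57.9). IRF8 carried 52.2 at 72 h (29.8 to 84.8), with 27.4 for the 48 h peak (14.2 to 47.9), and the intervals overlapped. The coding gene nearest to it in the annotation was the predicted gene Gm11140.

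Near Cd74, a place in an intron of Tcof1, a nucleolar protein gene, was in all 4 LPS lists and held an EICE. It lay 27.2 to 27.3 kb past the Cd74 TSS and carried 37.2 normalised IRF4 tags at 72 h (20.3 to 62.4), with 29.4 for the 48 h peak (14.1 to 54.1). IRF8 had 42.4 there at 72 h (22.6 to 72.5), and 25.1 in the 48 h list (12.5 to 45). The 2 GC intervals in Tcof1 did not overlap it, though the nearer one began at chr18:60991416, a short way past the end of the LPS peaks at 60991060. IRF4 at 48 h also had a peak 0.641 kb upstream of Tcof1, 45.7 kb from Cd74, with an AP-1 site and 29.4 tags (14.1 to 54.1). None of the 12 tests between LPS libraries at these shared neighbouring places passed (exact binomial test, adjusted p from 0.138 to 1).

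**Figure D4:**
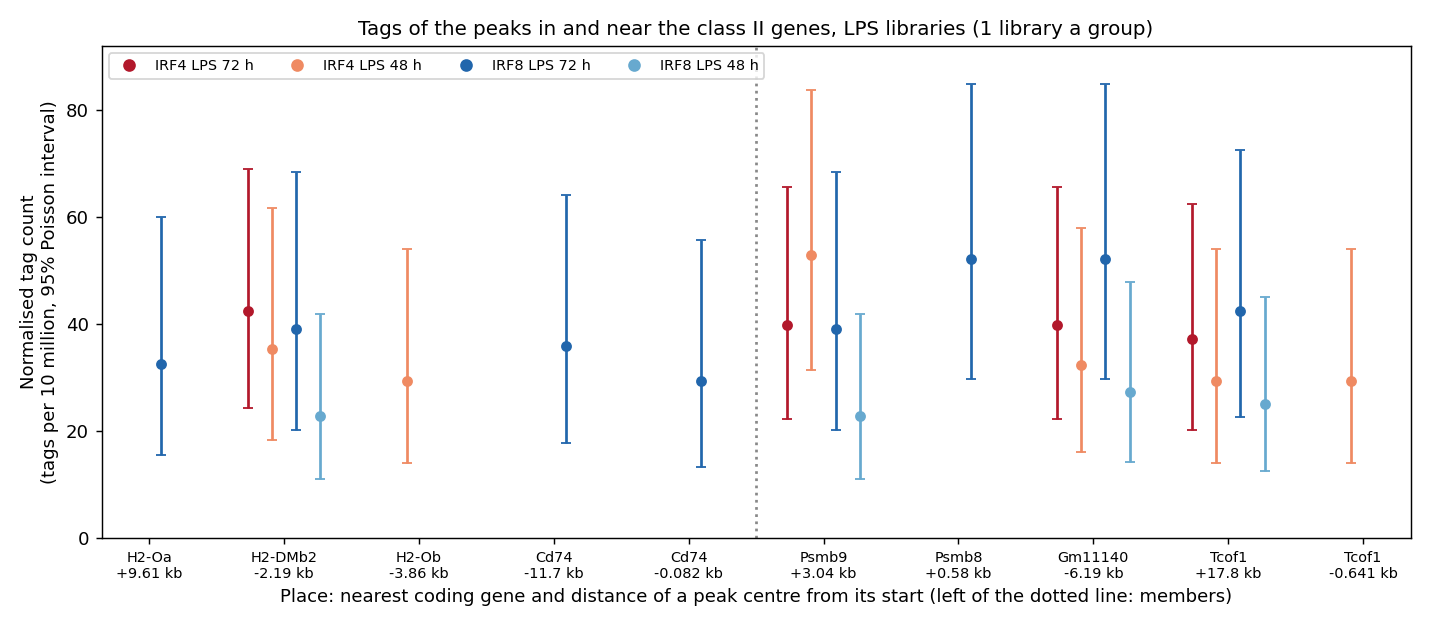
Normalised tag counts (tags per 10000000, points) with 95% Poisson intervals (bars) at the places with LPS peaks, members left of the dotted line and neighbouring genes right of it; each point is the only library of its group. At every place with more than 1 peak the bars overlap, and the IRF8 48 h points, 22.9 to 27.4, are the lowest.

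Places in all 4 LPS lists were thus 4 in this region, H2-DMb2 among them, and 1 of the 4 was in the GC list. Of the IRF8 48 h peaks, 33.8% were in the 3 other LPS lists as well, and of those 79 peaks 21.5% overlapped a GC interval (31.5% of the 54 in single-copy sequence). Just outside the limit of 50 kb, a place nearest to Ndst1, 59 kb from the Cd74 TSS, was in all 5 lists, with 61.1 and 67.7 normalised IRF4 tags at 72 h and 48 h, and 78.3 and 45.7 IRF8 tags at 72 h and 48 h. The farthest place kept as a neighbour was the one upstream of Tcof1, and the farthest assigned to a member was the distal one of Cd74.

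Among 20 other genes of the class II pathway, 8 had an interval in some list, against 11.6% of all genes, among them Ctss, Ctsb, Lgmn, March1, Rfx5, Creb1 and Cd86. The 12 without one were Ctsl, Ctsd, Ifi30, Rfxank, Rfxap, Nfya, Nfyb, Nfyc, Irf1, H2-Eb2, Cd80 and Cd40. By list the counts were 1 for IRF4 at 72 h (2.92% of all genes had an interval) and 4 for IRF4 at 48 h (4.75%). For IRF8 they were 4 in GC B cells (5.89%), 3 at 72 h (3.32%) and 0 at 48 h (0.756%). These counts were not tested, and the 20 genes were chosen with earlier results of these data known.

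Among the proteases, Ctss encodes cathepsin S, which cuts the invariant chain in B cells. IRF8 had a GC interval, chr3:95324768-95325903, 5.37 kb upstream of Ctss, and within it a 72 h peak with 62 normalised tags (37.3 to 96.8) and an EICE. A further GC interval lay 191 bp past the Ctss TSS. Lgmn, an asparaginyl endopeptidase that cuts antigens, had IRF4 peaks 2.69 and 2.7 kb upstream of the nearest coding start of the gene. They carried 34.5 normalised tags at 72 h (18.4 to 59), against 61.8 in the 48 h list (38.3 to 94.5). Their ratio of 0.558 (0.257 to 1.17) did not pass the exact binomial test (adjusted p = 0.555). That Lgmn place held AICE1 in duplicate. Another place lay 14.1 kb upstream of a different coding start of Lgmn. Each distance is from the coding start nearest to the peak, so upstream refers to that start alone. This other place had 47.8 IRF4 tags (28.3 to 75.5) and 26.1 IRF8 tags (11.3 to 51.4) at 72 h, and held an EICE and an AP-1 site. The ratio of IRF4 over IRF8 there was 1.83 (0.758 to 4.87) and did not pass the exact binomial test (adjusted p = 0.901). The composite sites are shown because they set the 2 kinds of composite element side by side:
Ctss, chr3:95325289-95325318, minus strand, EICE: cccctcggagGGAAATGAAAgcagaaagag
Lgmn, chr12:103692053-103692082, minus strand, EICE: atttaaaaaaGGAATTGAAAgcattatttc
Lgmn, chr12:103664680-103664709, plus strand, AICE1: ctggtgttctGAAATGACTCAcccaggctc
Lgmn, chr12:103664709-103664738, plus strand, AICE1: ctggtgttctGAAATGACTCAcccaggcct
Ctsb, encoding the protease cathepsin B, had a single IRF4 peak at 48 h, 9.53 kb past the TSS, with 29.4 tags (14.1 to 54.1) and a PU.1-type site.

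Among the regulators, Rfx5 encodes a subunit of the RFX complex, which binds the X box of class II promoters. IRF4 at 48 h had a peak 118 bp upstream of the Rfx5 TSS, chr3:94757629-94758129, with 44.2 normalised tags (24.7 to 72.8) and an AP-1 site. IRF8 in GC B cells had an interval 539 bp upstream of Creb1, and 2 at Cd86, a co-stimulatory ligand, one of them with an ISRE core. March1, a ubiquitin ligase that lowers class II on the surface, had an IRF8 peak at 72 h, 9.12 kb upstream, with 22.8 tags (9.18 to 47), the lowest value kept in that list.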

How the data were processed

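ChIP-seq peak lists of 5 libraries were used, 1 library for each group. Per the file headers, the authors called the 4 LPS lists with HOMER findPeaks in factor style: peaks of 500 bp, 1000 bp or more apart, with no more than 1 tag counted at a base. A false discovery rate of 0.001 was set, with a 4-fold excess over the 10000 bp around the peak at a local p-value of 1.00e-04. No control library is named in the headers. The signal used here is the normalised tag count deposited by the authors, per 10000000 tags of the library. The deposited score, focus ratio (a fraction), fold over the local region and p-value of each peak are the authors' and were used in no test. For GC B cells the design text names MACS; that list gives positions alone, so its depth, threshold and control are unknown here. The build was mm9 per the labels. The submitters' processing notes name Bowtie2 and BWA without a role. For IRF8 at 72 h the header names the tag set as replicate 2; no other one was analysed here.

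The LPS libraries held 3766015 (IRF4 72 h), 3396941 (IRF4 48 h), 3065426 (IRF8 72 h) and 4375858 tags (IRF8 48 h), of which 0.45%, 0.82%, 0.52% and 0.18% fell in peaks, so the IRF8 48 h list is the least enriched. Genes came from GENCODE M1 on NCBIM37, which is mm9, using protein-coding transcripts of protein-coding genes. Places are intervals that overlap by at least 1 bp. Elements were searched within 100 bp of the interval centre. Multiplying by the library total gave whole tags within 0.05 for 100% of peaks; these gave exact 95% Poisson intervals and exact binomial tests between 2 libraries, with Benjamini-Hochberg adjustment over all places shared by the pair of lists. The tests were also run on simulated tags that held counting error alone, so that run does not cover variation between libraries. Intervals cover counting error only. Intervals counted as repeated if the 24-base words near their centre had a median above 1 occurrence in the genome; 0 of the 13 class II intervals and 0 of the 19 neighbouring ones were. All 10 members and every interval near them are named. 1 gene of the pathway list is counted but not reported here. The members and gene lists were chosen with earlier results of these data known. Computation used Python 3.11.15, NumPy 2.4.6, SciPy 1.17.1 and pysam 0.24.0.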

Additional observations from a re-analysis of the deposited data

Results flagged for a closer look

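At the place between H2-DMb1 and Psmb9, the tags of the 2 factors moved in opposite directions in time. The log2 ratio of 72 h over 48 h was -0.41 for IRF4 and 0.78 for IRF8. Each rests on 1 library per time, neither passed the exact binomial test (adjusted p = 0.924 and 0.525), and the difference between the 2 ratios was not tested. Over all shared places the median log2 ratio was -0.39 for IRF4 and 0.59 for IRF8, so the place had the sign of the median in each.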

How the results depend on the processing

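With only peaks at or above the pooled median of 32.6 normalised tags, the IRF4 48 h list kept 1 class II gene and 1 interval (the H2-Ob peak was lost), and the IRF8 48 h list kept 0 genes and 0 intervals. Within 10 kb in place of 50 kb, the GC list had 3 assigned intervals in place of 5. Over whole intervals an ISRE core lay at 2 of the 6 class II places, in place of 0. The other 69 recomputed main values kept their call or stayed within 1.5 times, with 100 kb, any annotated gene, single-copy intervals, windows of 50 bp, an overlap of 50%, other scaling of tags, and all transcripts of coding genes. That last setting, and every setting for the other pathway genes, was added after the data were seen. Among the values that stayed within 1.5 times, the GC list had 2 class II genes within 10 kb in place of 3, without H2-Oa. The IRF8 72 h list had 3 assigned intervals within 10 kb in place of 4, without the distal Cd74 peak. With windows of 50 bp the 3 class II places with an EICE rest on the IRF8 72 h peaks alone. No tag ratio changed its call when tags were scaled to those in shared places. Among the other pathway genes, the IRF8 72 h count moved to 1 from 3 at the pooled median. No paired analysis was possible because each group had 1 library. Depth limits these values: the class II LPS peaks rest on 9 to 16 tags.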
